A study of Mus musculus with 24 samples.

Results

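Keratins are the intermediate filament proteins of epithelial cells. Members were all protein-coding mouse genes whose symbol is Krt followed by digits only, and 49 of the 39179 genes in the deposited count files met this rule. Keratin-associated genes (Krtap, Krtdap) and names that end in a letter, such as Krt6a and Krt33a, fell outside it. The genes were followed through 24 RNA-seq libraries of mouse gut, in 8 groups of 3, from a study of Cdx2, a homeobox transcription factor of intestinal identity.

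The tested cecum groups were Cdx2-/-;Apc+/- cecum (genotype Cdx2f/f::AhCreERT::ApcD14/+), Cdx2-/- cecum (Cdx2f/f::AhCreERT) in 2 sets with different library codes, and cecum labelled Cdx2+/-. WT stomach served as a second tissue and WT cecum as the control. In the ileum, Cdx2-/-;Apc+/- was set against Apc+/-. The conditional Cdx2-/- groups carried an inducible Cre, CreERT driven by the Ah (CYP1A1) promoter, and were given tamoxifen and β-naphthoflavone. WT, Cdx2+/- and Apc+/- ileum samples had no treatment, so drug treatment cannot be told apart from loss of Cdx2. ApcD14/+ is a heterozygous mutant allele of Apc, the tumour suppressor of the Wnt pathway, and WT and Cdx2+/- groups lacked it. The genotype entries of Apc+/- ileum replicates 1 and 3 name Cdx2f/f::AhCreERT while their descriptions call the Cdx2 allele non-floxed, and the titles were followed. The labels give no ages and do not say that replicates were separate animals, so the p-values reflect library-to-library spread, which may be technical. Each library held 36567685 to 87975179 reads assigned to genes.

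A keratin filament is an obligate heteropolymer of a type I (acidic) and a type II (neutral or basic) chain. Single-layered epithelia such as the gut lining use Krt8 with Krt18, Krt19 and Krt20. Stratified epithelia use Krt5 with Krt14 in the basal layer, Krt4 with Krt13 in the upper layers of moist mucosa, and Krt1 with Krt10 in cornifying layers. Krt16 and Krt17 are made by activated keratinocytes, and many of the remaining members build hair and its root sheath. The mouse stomach has a squamous forestomach beside its glandular part. Of the 49 members, 26 were type I and 23 type II. The annotation (GENCODE, GRCm38) placed 25 type I genes on chromosome 11 between 99232761 and 100269871, and all 23 type II genes on chromosome 15 between 101347444 and 102032027. Krt18 is the only type I gene in the chromosome 15 cluster.

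The 250 bases before the start are printed for 3 simple-epithelial members whose levels differed most clearly between the cecum groups, because Cdx2 is a DNA-binding factor with a known core recognition sequence, searched here as TTTATNG on both strands. Capitals mark a match to it.
Krt20, chr11:99438154-99438403, minus strand: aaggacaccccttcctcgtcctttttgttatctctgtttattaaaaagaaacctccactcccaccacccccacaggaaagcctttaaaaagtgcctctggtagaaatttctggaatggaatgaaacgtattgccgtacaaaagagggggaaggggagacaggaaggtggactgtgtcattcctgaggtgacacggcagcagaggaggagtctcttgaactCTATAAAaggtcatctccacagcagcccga
Krt7, chr15:101412153-101412402, plus strand: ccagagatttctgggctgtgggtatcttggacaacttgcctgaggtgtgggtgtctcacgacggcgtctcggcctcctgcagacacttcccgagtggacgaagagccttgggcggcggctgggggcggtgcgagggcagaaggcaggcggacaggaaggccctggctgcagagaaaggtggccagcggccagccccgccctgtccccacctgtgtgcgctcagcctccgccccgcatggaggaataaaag
Krt23, chr11:99493121-99493370, minus strand: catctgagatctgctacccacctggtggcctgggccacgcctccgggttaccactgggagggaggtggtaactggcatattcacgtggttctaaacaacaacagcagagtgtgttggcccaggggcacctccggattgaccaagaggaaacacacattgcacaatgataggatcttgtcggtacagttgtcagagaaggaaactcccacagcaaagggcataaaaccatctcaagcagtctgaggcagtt
Sequences are from RefSeq (GRCm38.p6), which gave 36 promoters for 35 of the members. The Krt20 match lies on the opposite strand and overlaps the TATA box, TATAAA. Over windows of 250 bases before to 50 bases after the start, TTTATNG was found in 15 of the 36 keratin promoters and in 10.9% of 32851 promoters of all genes. TATAAA was found in 18 of the 36 and in 13.6% of all, so the overlap bears on both counts. TGANTCA, the core letters bound by AP-1, was found in 2 of the 36 and in 7.81% of all. A match describes the letters only and is neither a bound site nor a cause of a change.

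Cdx2 itself reached 122 to 151 CPM (read counts scaled for library size and composition by TMM) in Cdx2-/-;Apc+/- cecum, 130 to 349 in Cdx2-/- cecum and 408 to 663 in WT cecum. Libraries labelled Cdx2+/- held 115 to 118 CPM, below every Cdx2-/- and Cdx2-/-;Apc+/- cecum library. As these levels do not follow the order of the labels, "labelled Cdx2+/-" is written throughout. Deleted exons are not separable in gene counts, so the levels cannot show a label to be wrong. Ileum libraries held 36.9 to 178 CPM in Cdx2-/-;Apc+/- and 63.3 to 112 in Apc+/-, and stomach at most 1.52. Apc held 99.0 to 218 CPM in all libraries and did not separate the genotypes, which a truncating allele need not do. The 2 Cdx2-/- sets differed in sex-linked transcripts, with Xist at 666 to 816 CPM in set 1 and at most 2.19 in all other libraries. Sex thus goes with set, and every comparison that uses set 1 also sets libraries of different sex against each other. General epithelial markers (Epcam, Cdh1 and 4 more) summed to 4053 ± 567 CPM in Cdx2-/- cecum (SD, n = 6). In WT cecum they summed to 6886 ± 1784 CPM (SD, n = 3). Of these markers 5 of 6 were lower in Cdx2-/- cecum, as were 7 of 7 intestinal epithelial markers, against 26.2% of all genes. In bulk tissue, fewer cells of a type and less RNA per cell cannot be told apart. Smooth muscle markers summed to 119 to 531 CPM in libraries labelled Cdx2+/- and 1131 to 3827 in WT cecum, and the part of that difference in the keratin results was not tested.

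Only part of the keratin family was present. A mean of at least 1 CPM in at least 1 group was reached by 24 members, and 20 had reads in all 24 libraries. Of the 19 hair shaft and root sheath members, only Krt84 and Krt36 reached that level. The count test covered 28 members, which passed a filter on low counts across 20502 genes, and 21 did not pass (Krt42, Krt77, Krt86, Krt35, Krt75, Krt82, Krt25, Krt26, Krt24, Krt76, Krt31, Krt32, Krt73, Krt40, Krt28, Krt81, Krt2, Krt71, Krt72, Krt34 and Krt9). The highest library value among those 21 was 0.971 CPM, for Krt42, and the other 20 stayed under 0.3 CPM everywhere. Krt27, Krt83, Krt88 and Krt39 were tested but stayed under the mean of 1 CPM, with a highest library value of 1.24 CPM for Krt27. Members that passed only through the group in which they were high had to differ, so counts over the 28 are descriptions.

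**Figure D1:**
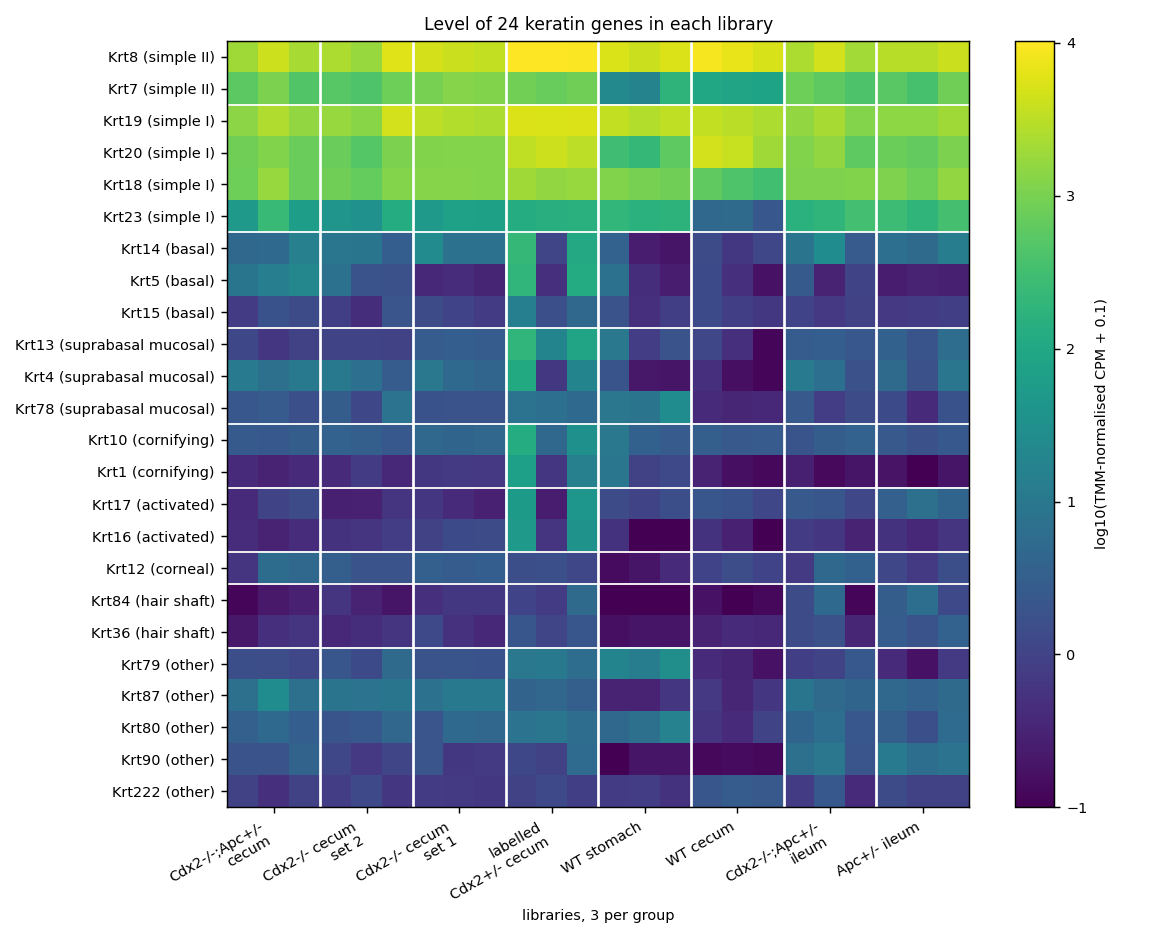
Levels of the 24 keratins with a mean of at least 1 CPM in at least 1 group (down the page) in each of the 24 libraries (across), coloured by log10(CPM + 0.1). Krt8, Krt18, Krt19 and Krt20 fill the top in every library, while Krt5, Krt14, Krt17 and Krt16 are bright in 2 of the 3 libraries labelled Cdx2+/-. Krt13 is above WT cecum in all 3 of them and brightest in the same 2.

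On a scale comparable between genes, CPM per kilobase of exon, the keratin pool of every library was made mostly of Krt8, Krt18, Krt19 and Krt20. These 4 made up 91.1 to 99.7% of all keratin signal over the 24 libraries, and with Krt7 and Krt23 added 95.6 to 99.9%. In WT cecum the mean shares of the pool were 48.4% for Krt8, 24.5% for Krt20, 22.7% for Krt19 and 4.18% for Krt18. In Cdx2-/- cecum they were 39.2% for Krt8, 10.6% for Krt20, 29.7% for Krt19 and 16.4% for Krt18. The union of annotated Krt7 exons is long (7049 bases), so its per-length values are understated beside those of the others.

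The summed keratin pool was 3888 ± 1574 CPM per kilobase in Cdx2-/-;Apc+/- cecum (SD, n = 3), 4838 ± 1720 in Cdx2-/- cecum (n = 6), 11753 ± 405 in cecum labelled Cdx2+/- (n = 3), 5359 ± 737 in WT stomach (n = 3) and 7409 ± 2048 in WT cecum (n = 3). All 3 libraries labelled Cdx2+/- lay above the highest WT cecum library, at 11467 to 12217 against 5223 to 9283. Cdx2-/- libraries spanned 2416 to 7071 and overlapped WT cecum. The pool did not separate the ileum groups, with 4122 ± 1208 in Cdx2-/-;Apc+/- and 4112 ± 941 in Apc+/- (n = 3 each).

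Krt20, the type I keratin of differentiated surface cells of the gut, was the simple keratin that fell most in both Cdx2-/- genotypes. Its levels were 844, 1137 and 750.3 CPM in Cdx2-/-;Apc+/- cecum, 733, 485 and 1042 in Cdx2-/- set 2 and 1164, 1197 and 1192 in set 1, against 4790.3, 3993 and 1994 CPM in WT cecum. No library of either Cdx2-/- genotype reached the lowest WT cecum library. The log2 fold change was -1.98 ± 0.40 (SE) in Cdx2-/-;Apc+/- cecum and -1.93 ± 0.32 in Cdx2-/- cecum (edgeR adjusted p = 5.85e-05 for Cdx2-/-). Libraries labelled Cdx2+/- held 3395, 4276 and 3312 CPM, inside the WT range, with a log2 fold change of 0.03 ± 0.39 that did not pass the test. WT stomach was lower still, at 301, 223 and 592 CPM, with a log2 fold change of -3.27 ± 0.42 against WT cecum. The Cdx2-/-;Apc+/-, Cdx2-/-, labelled Cdx2+/- and stomach comparisons all use the same 3 WT cecum libraries and are not independent.

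Krt18, the type I partner of Krt8, moved the other way. It held 800.5, 1750.2 and 746 CPM in Cdx2-/-;Apc+/- cecum, 859.6, 677 and 1236 in Cdx2-/- set 2 and 1273, 1292 and 1191 in set 1, against 604, 422 and 316 CPM in WT cecum. All 9 Cdx2-/- and Cdx2-/-;Apc+/- libraries lay above all 3 WT cecum libraries. Krt18 rose by 1.30 ± 0.31 in Cdx2-/-;Apc+/- cecum and by 1.27 ± 0.28 in Cdx2-/- cecum on the log2 scale (edgeR adjusted p = 0.000934 for Cdx2-/-). In cecum labelled Cdx2+/- it held 1962, 1616 and 1722 CPM and rose by 1.98 ± 0.32 (edgeR adjusted p = 0.000106), and in WT stomach 1159, 965 and 835 CPM, a rise of 1.14 ± 0.31. WT cecum was thus the group with the lowest Krt18 among the cecum and stomach groups.

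Krt8, the type II chain of simple epithelia, held 1989, 4213 and 2248 CPM in Cdx2-/-;Apc+/- cecum, 2471, 1722 and 5803 in Cdx2-/- set 2 and 4980.0, 4013 and 3664 in set 1, against 8691, 7130.0 and 5129.9 CPM in WT cecum. It fell by 1.31 ± 0.39 on the log2 scale in Cdx2-/-;Apc+/- cecum, whose libraries did not overlap WT cecum (edgeR adjusted p = 0.00888). In Cdx2-/- cecum it fell by 0.90 ± 0.32 (edgeR adjusted p = 0.0261), with 1 set 2 library inside the WT range. The call was also lost with only the compared groups fitted (-0.85, adjusted p 0.0896) and with set 1 alone (-0.73, adjusted p 0.132). It was lost when WT cecum replicate 1 or 2, set 1 replicate 3, or set 2 replicate 4 or 5 was left out, with log2 fold changes of -0.71 to -0.88 and adjusted p of 0.0524 to 0.135. Libraries labelled Cdx2+/- held 10346, 10058 and 9871 CPM, all above WT cecum, yet the difference of 0.53 ± 0.39 did not pass the test. About 29.7% of Krt8's 50-base windows (567) also occur in other genes, 514 of them in a Krt8 pseudogene. Krt8 counts are therefore less certain than those of Krt18, with 0.72%.

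Krt19, a type I keratin common in ducts and glands, did not pass the test in any of the 4 comparisons with WT cecum. It averaged 1871 CPM in Cdx2-/-;Apc+/- cecum, 2712 in Cdx2-/- cecum, 5548 in cecum labelled Cdx2+/-, 3289 in WT stomach and 3051 in WT cecum. The log2 fold changes against WT cecum were -0.71 ± 0.36, -0.17 ± 0.30, 0.86 ± 0.36 and 0.11 ± 0.35 in that order. The labelled Cdx2+/- libraries lay at 5338 to 5678 CPM and the WT cecum libraries at 2468 to 3547 without overlap, and the edgeR adjusted p was 0.0682. With the replicate number as a block, fitted jointly over 7 groups without set 2, the Krt19 difference was 0.87 (edgeR adjusted p = 0.0199). The pairing behind that block was read from these same data, so the fit without a block stays the main result.

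**Figure D2:**
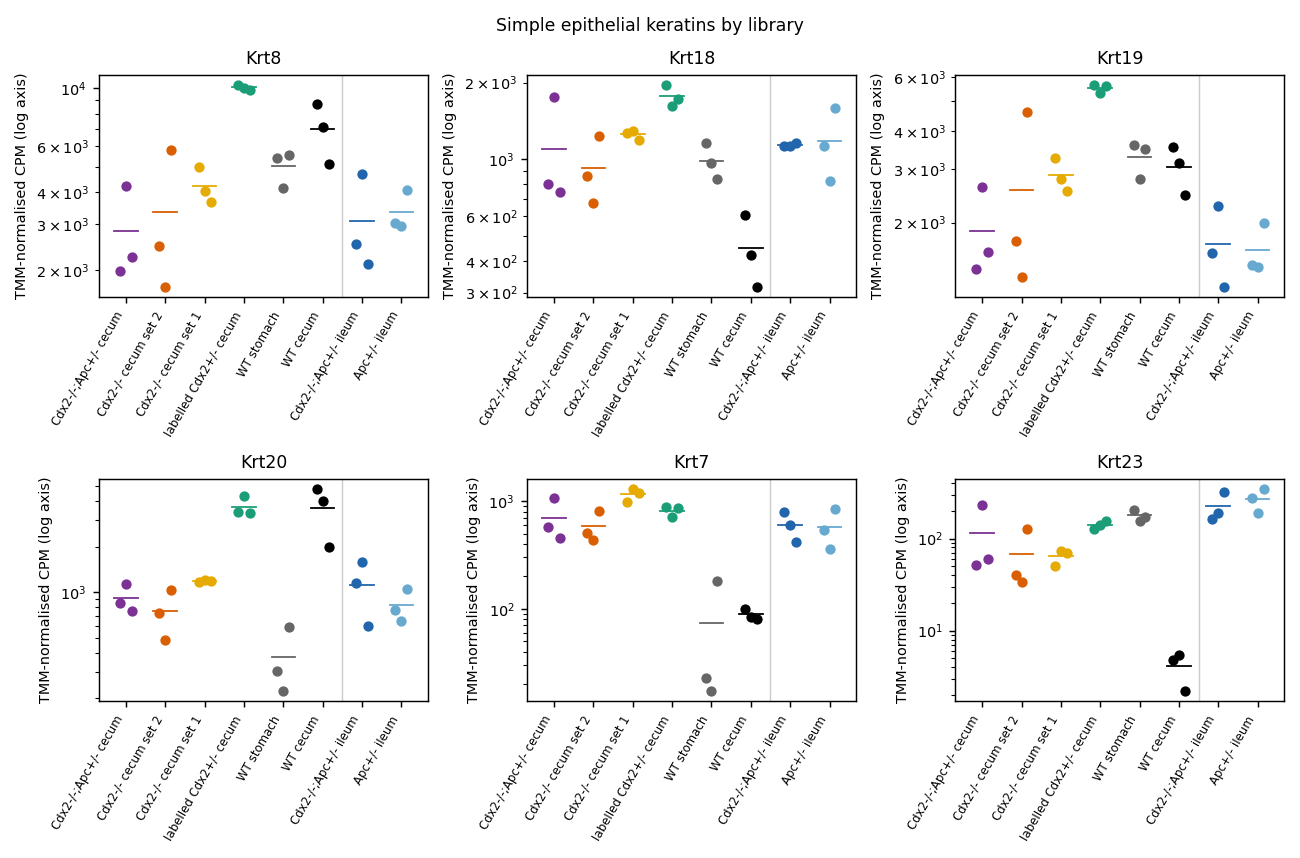
CPM (log axis) of Krt8, Krt18, Krt19, Krt20, Krt7 and Krt23, 1 panel each, in the 8 groups, with a dot for each library and a line at each mean of 3. Krt20 lies lowest in WT stomach and Krt18, Krt7 and Krt23 lie lower in WT cecum than in every Cdx2-/- group.

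The opposite movements of Krt8 and Krt18 changed the makeup of the pair. The ratio of Krt8 to Krt18 per kilobase was 1.82, 1.77 and 2.21 in Cdx2-/-;Apc+/- cecum, 2.11, 1.87 and 3.44 in Cdx2-/- set 2 and 2.87, 2.28 and 2.26 in set 1, against 10.6, 12.4 and 11.9 in WT cecum. It was 3.87, 4.57 and 4.21 in cecum labelled Cdx2+/- and 3.41, 3.14 and 4.86 in WT stomach. WT cecum therefore stood apart from every other library, and no other library exceeded 4.86. Ileum ratios were 1.63, 3.04 and 1.34 in Cdx2-/-;Apc+/- and 1.96, 2.64 and 1.88 in Apc+/-, close to the Cdx2-/- cecum range. Over the whole family the chains were closer to even, since Krt19 and Krt20 are type I too. Type I genes made up 60.2 ± 1.4% of the pool in Cdx2-/-;Apc+/- cecum (SD, n = 3), 57.9 ± 2.0% in Cdx2-/- cecum (SD, n = 6), 54.5 ± 0.2% in cecum labelled Cdx2+/- and 51.4 ± 1.6% in WT cecum (n = 3 each).

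A second ratio, Krt20 to Krt19, compared the differentiation-linked chain with its more widely used relative. It was 0.420 to 0.576 in Cdx2-/-;Apc+/- cecum, 0.217 to 0.451 in Cdx2-/- cecum, 0.566 to 0.771 in cecum labelled Cdx2+/-, 0.0770 to 0.163 in WT stomach and 0.778 to 1.30 in WT cecum. The order ran from stomach through Cdx2-/- and labelled Cdx2+/- to WT cecum. Labelled Cdx2+/- and WT cecum lay close together at 0.771 and 0.778, and Cdx2-/-;Apc+/- libraries overlapped both Cdx2-/- and labelled Cdx2+/- ones. No test was made on either ratio.

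**Figure D3:**
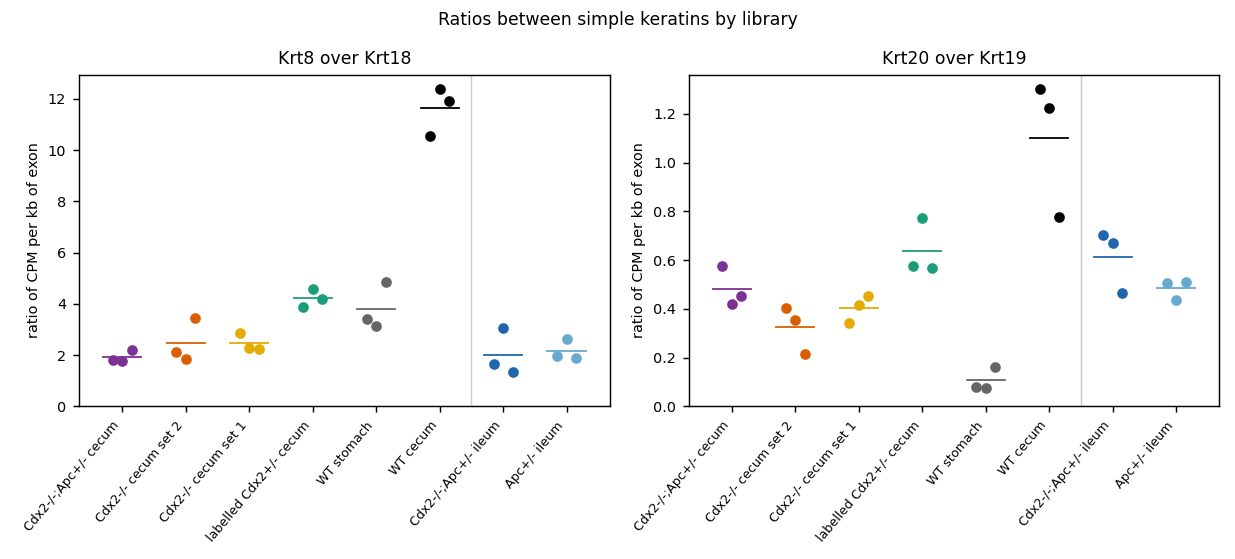
Ratios of Krt8 to Krt18 and of Krt20 to Krt19 (both CPM per kilobase of exon), with a dot per library in each of the 8 groups. The 3 WT cecum libraries hold Krt8 to Krt18 ratios of 10.6 to 12.4, above all other libraries, and WT stomach holds the lowest Krt20 to Krt19 ratios.

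Krt7, the type II keratin of ductal epithelia and mesothelium, rose in all 3 tested cecum groups. It held 574, 1080.0 and 455 CPM in Cdx2-/-;Apc+/- cecum, 509, 437 and 811 in Cdx2-/- set 2, 978, 1298 and 1185 in set 1 and 874, 709 and 858 in cecum labelled Cdx2+/-, against 99.9, 84.6 and 80.7 CPM in WT cecum. The lowest of these libraries was several-fold above the highest WT cecum library. Log2 fold changes were 2.99 ± 0.64 in Cdx2-/-;Apc+/- cecum, 3.22 ± 0.61 in Cdx2-/- cecum and 3.20 ± 0.64 in cecum labelled Cdx2+/- (edgeR adjusted p = 0.000201 for Cdx2-/-). Cdx2-/- and labelled Cdx2+/- cecum differed by 0.01 ± 0.51. WT stomach held 22.8, 17.1 and 179 CPM and overlapped WT cecum.

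Mesothelial markers were checked beside Krt7. Msln, a mesothelial surface protein also made by other epithelia, rose by 4.37 ± 0.59 in Cdx2-/- cecum, while Upk3b and Lrrn4 differed by -0.51 ± 0.99 and -0.55 ± 0.98 and did not pass the test. The 8 mesothelial markers summed to 27.5 to 107 CPM in Cdx2-/- cecum and 4.40 to 28.9 in WT cecum. They summed to 19.8 to 38.4 CPM in cecum labelled Cdx2+/- and 87.3 to 111 in WT stomach. Of the 7 tested, 1 was higher and none lower in Cdx2-/- cecum than in WT cecum, against 26.9% and 26.2% of all genes. In cecum labelled Cdx2+/- 2 of these markers were higher and 4 lower, against 17.1% and 17.3% of all genes. The list median log2 fold change there was -2.12, against -0.05 for all genes. Their part in the Krt7 result was not tested. The 4 urothelial markers summed to 1.92 to 7.22 CPM in Cdx2-/- cecum and 10.1 to 12.8 in WT cecum.

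Krt23, a type I keratin of glandular epithelia, held 51.7, 234 and 60.6 CPM in Cdx2-/-;Apc+/- cecum, 33.6 to 128 in the 6 Cdx2-/- libraries (median 60), 126, 141 and 154 in cecum labelled Cdx2+/- and 206, 156 and 172 in WT stomach, against 4.77, 5.40 and 2.20 CPM in WT cecum. Groups did not overlap with WT cecum. It rose by 4.81 ± 0.61 in Cdx2-/-;Apc+/- cecum, 4.00 ± 0.56 in Cdx2-/- cecum, 5.10 ± 0.62 in cecum labelled Cdx2+/- and 5.44 ± 0.63 in WT stomach on the log2 scale (edgeR adjusted p = 8.21e-06 for Cdx2-/-). Unlike Krt7, Krt23 was high in stomach. Of 8 gastric glandular markers (Gkn1, Tff1 and 6 more), 1 was higher and 2 were lower than WT cecum in Cdx2-/-;Apc+/- cecum. Of all genes 26.6% were higher and 26.1% lower there, so neither count exceeds the background. In Cdx2-/- cecum 4 were higher and 1 lower, against 26.9% and 26.2% of all genes. In cecum labelled Cdx2+/- 5 were higher and none lower, against 17.1% and 17.3% of all genes. In WT stomach all 8 markers were higher, against 22.1% of all genes. They summed to 1389 to 2775 CPM in Cdx2-/-;Apc+/- cecum, 1756 to 22551 in Cdx2-/- cecum, 25914 to 27876 in cecum labelled Cdx2+/-, 203014 to 270294 in WT stomach and 6.34 to 1047 in WT cecum. Their part in the Krt23 result was not tested.

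Across the 28 tested members, Cdx2-/- cecum had 11 higher and 4 lower than WT cecum, where 26.9% of all genes tested were higher and 26.2% lower. The median log2 fold change of the members was 1.55 (1.83 without a gene whose group had no reads), and that of all genes 0.04. Beside Krt18, Krt7 and Krt23, the higher members were Krt4 (5.55 ± 1.51), Krt90 (4.81 ± 0.94), Krt87 (4.28 ± 0.51), Krt79 (3.57 ± 0.63), Krt14 (3.34 ± 1.26), Krt78 (3.24 ± 0.66), Krt80 (2.50 ± 0.55) and Krt83 (2.20 ± 0.57), as log2 fold changes with SE. The lower ones were Krt17 (-2.36 ± 0.83) and the keratin-like gene Krt222 (-1.80 ± 0.42), beside Krt20 and Krt8. In every processing alternative tried, 12 of the 15 stayed called. Krt14 lost its call without set 1 replicate 1 or any 1 WT cecum library (2.92 to 3.57, adjusted p 0.0597 to 0.112) and with set 2 alone (2.86, adjusted p 0.0780). Krt17 lost its call without WT cecum replicate 1 or 2 (-2.15 and -2.31, adjusted p 0.0732 and 0.0562), with set 1 alone (-2.21, adjusted p 0.0811) and with set 2 alone (-2.52, adjusted p 0.0551).

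These stratified and minor keratins stayed at low levels in Cdx2-/- cecum. Krt4, the upper-layer keratin of moist stratified mucosa, held 10.7, 6.83 and 2.73 CPM in set 2 and 9.93, 5.02 and 4.17 in set 1, against 0.397, 0.0627 and 0.0149 CPM in WT cecum. Its type I partner Krt13 held 0.867 to 3.05 CPM, against 0.0149 to 1.09, and did not pass the test (1.83 ± 0.89). Krt14, the basal type I keratin, held 3.07 to 25.7 CPM against 0.565 to 1.30, whereas its type II partner Krt5 held 0.235 to 7.49 against 0.0743 to 1.22 (0.95 ± 1.34, not past the test). Thus each partner pair had 1 chain past the test and 1 not, which does not show that they differed from each other. Krt87 held 7.25 to 10.6 CPM in Cdx2-/- cecum and 0.251 to 0.583 in WT cecum. Krt87 and Krt14 share 36.9% and 13.9% of their 50-base windows with other genes, so their counts are uncertain. The same holds for Krt12 (42.0%), Krt16 (37.6%), Krt83 (22.1%), Krt5 (12.2%, mostly with Krt6a) and Krt27 (11.1%), each called in some comparison.

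Cdx2-/-;Apc+/- cecum had 12 members higher and 3 lower than WT cecum, against 26.6% and 26.1% of all genes. The members' median log2 fold change was 1.58 (1.54 without a gene whose group had no reads) and that of all genes 0.07. Krt90 (6.15 ± 0.99), Krt4 (6.08 ± 1.59), Krt87 (4.93 ± 0.55), Krt5 (4.79 ± 1.54), Krt78 (2.92 ± 0.70), Krt79 (2.79 ± 0.66), Krt80 (2.69 ± 0.60), Krt83 (1.96 ± 0.63) and the corneal keratin Krt12 (1.77 ± 0.71) were higher beside Krt18, Krt7 and Krt23. Krt222 was lower (-1.83 ± 0.52), as were Krt20 and Krt8. Krt12 lost its call (edgeR adjusted p = 0.0437) without any 1 WT cecum library, Cdx2-/-;Apc+/- replicate 2 or replicate 3 (1.30 to 2.03, adjusted p 0.0622 to 0.169), with only the compared groups fitted (1.85, adjusted p 0.0920) and with no low-count filter (1.75, adjusted p 0.0551), and Krt5 without WT cecum replicate 2 (4.59, adjusted p 0.0547).

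Against Cdx2-/- cecum, Cdx2-/-;Apc+/- cecum had 2 of the 28 tested members higher and none lower, where 3.93% of all genes were higher and 4.50% lower. The members' share lies near that background, and neither call held when each library was left out in turn. Of the members, 3 had an unadjusted p under 0.05 and DESeq2 called 2. Krt5, the basal type II keratin, held 8.65, 13.7 and 21 CPM in Cdx2-/-;Apc+/- cecum, against 7.49, 1.82 and 1.67 in Cdx2-/- set 2 and 0.261, 0.332 and 0.235 in set 1. It rose by 3.84 ± 1.12 on the log2 scale (edgeR adjusted p = 0.0405). Set 1 also differed in sex from the other libraries, and the part of sex in this difference was not tested. The call was lost without any 1 of the Cdx2-/-;Apc+/- or set 1 libraries or set 2 replicate 5 or 6 (3.47 to 4.08, adjusted p 0.0533 to 0.110), and set 2 alone as the control gave 1.98 (adjusted p 0.696). Krt88 rose by 2.37 ± 0.63 at 0.0425 to 0.185 CPM against at most 0.0667, and lost its call without set 1 replicate 2 or 3, Cdx2-/-;Apc+/- replicate 2 or 3, or set 2 replicate 4 (1.98 to 2.41, adjusted p 0.0545 to 0.168). Trp63, the basal-layer transcription factor p63, read after its values were seen, held 0.893, 0.994 and 1.55 CPM in Cdx2-/-;Apc+/- cecum, against 1.5, 0.613 and 0.133 in set 2 and 0.0475 to 0.0672 in set 1. Trp63 is 1 of 17 listed genes of stratified squamous epithelium. Of the 16 tested in this comparison, 1 was higher and none lower, with a list median of 0.50 and an all-gene median of 0.02.

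**Figure D4:**
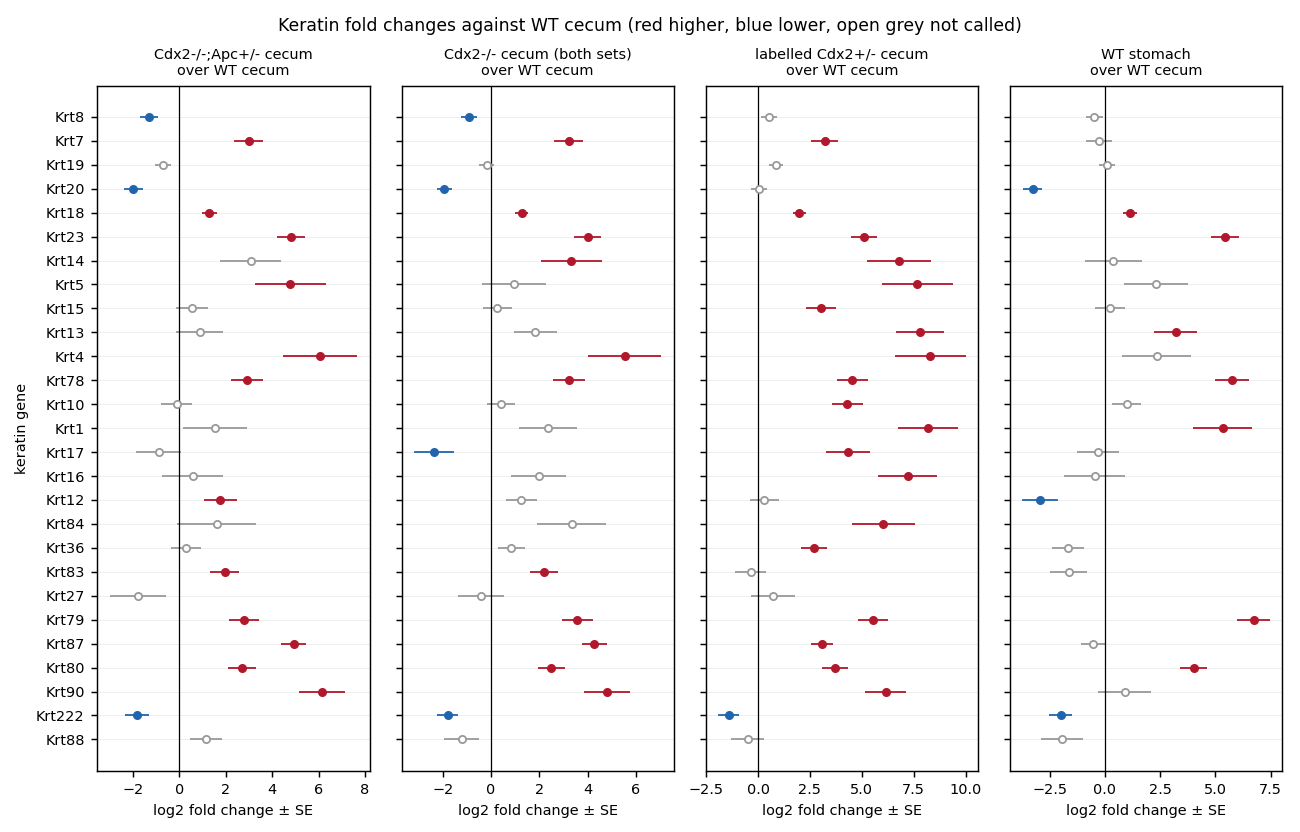
Log2 fold change against WT cecum (points, bars of ± 1 SE) of 27 tested keratins in Cdx2-/-;Apc+/- cecum, Cdx2-/- cecum, cecum labelled Cdx2+/- and WT stomach, with red for higher, blue for lower and open grey for not past the test. Krt27 and Krt84 are not drawn where stomach had no reads; the labelled Cdx2+/- panel holds the most red points, 19.

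Cecum labelled Cdx2+/- had 19 members higher and 1 lower than WT cecum, against 17.1% and 17.3% of all genes. The members' median log2 fold change was 3.46 and that of all genes -0.05. By role, 3 of 3 tested basal keratins, 3 of 3 mucosal, 2 of 2 cornifying and 2 of 2 activated ones were higher. The largest log2 fold changes were Krt4 (8.29 ± 1.70), Krt1 (8.20 ± 1.44), Krt13 (7.79 ± 1.15), Krt5 (7.67 ± 1.72), Krt16 (7.19 ± 1.41) and Krt14 (6.79 ± 1.53). Krt90 (6.14 ± 0.99), Krt84 (6.03 ± 1.51), Krt79 (5.54 ± 0.71), Krt78 (4.54 ± 0.73), Krt17 (4.32 ± 1.05), Krt10 (4.3 ± 0.75), Krt80 (3.71 ± 0.62), Krt87 (3.08 ± 0.51), Krt15 (3.05 ± 0.72) and Krt36 (2.68 ± 0.63) followed, beside Krt18, Krt7 and Krt23. Krt222 was lower (-1.41 ± 0.51) and lost its call without any 1 of the 6 libraries (-1.28 to -1.63, adjusted p 0.0503 to 0.120) and with no low-count filter (-1.39, adjusted p 0.0532). Krt17 lost its call with only the compared groups fitted (4.38, adjusted p 0.0611).

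The 3 libraries labelled Cdx2+/- did not hold the same stratified keratins, and replicate 2 stood apart from replicates 1 and 3. Krt5 held 197, 0.382 and 122 CPM in the labelled Cdx2+/- libraries, in replicate order, against 1.22, 0.376 and 0.0743 in WT cecum. Krt14 held 218, 1.01 and 106 CPM, against 1.30, 0.565 and 1.07. Replicate 2 thus lay within the WT cecum range for both basal chains.

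The activated keratins Krt17 and Krt16 split in the same way. Krt17 held 54.2, 0.139 and 42.5 CPM in the labelled Cdx2+/- libraries, against 2.07, 1.72 and 1.07 in WT cecum, and Krt16 held 50, 0.469 and 36.5 CPM against 0.450, 0.188 and 0. Replicate 2 lay below WT cecum for Krt17 and just above it for Krt16. Krt4 held 113, 0.538 and 18.2 CPM against 0.397, 0.0627 and 0.0149. Krt1 held 67.2, 0.521 and 15 CPM against 0.212, 0.0627 and 0.0297, and its partner Krt10 held 126, 4.76 and 32.6 CPM against 3.26, 2.38 and 2.69. For Krt4, Krt1 and Krt10, replicate 2 lay far below replicates 1 and 3 yet above all 3 WT cecum libraries. All stratified keratins together summed to 1053, 34.2 and 466 CPM in the labelled Cdx2+/- libraries and 5.93 to 11.5 in WT cecum.

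Other keratins were high in all 3 libraries labelled Cdx2+/-, replicate 2 included. Krt13 was high throughout, at 204, 17.9 and 84.1 CPM, against 1.09, 0.376 and 0.0149 in WT cecum. Krt79, a keratin of hair follicle openings, held 10.1, 10.5 and 6.14 CPM against 0.291, 0.230 and 0.0743. Krt78, of the upper layers of squamous epithelium, held 8.10, 6.76 and 5.07 CPM against 0.318, 0.251 and 0.282. Krt80, a type II keratin of differentiating epithelia, held 7.86, 9.38 and 5.97 CPM against 0.477, 0.293 and 0.966.

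With replicates 1 and 3 left out, an alternative chosen after seeing the data, replicate 2 alone was set against WT cecum and assumed to vary like the other groups. With 1 library in a group, only effect sizes are given. Krt13 stood at 5.24, Krt78 at 4.57, Krt79 at 5.77, Krt80 at 4.00, Krt87 at 3.29 and Krt90 at 4.58 on the log2 scale. Krt17 reversed to -3.51, while Krt14 gave 0.05 and Krt5 -0.48. Simple keratins kept close values, with Krt18 at 1.86, Krt7 at 3.01 and Krt23 at 5.11.

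**Figure D5:**
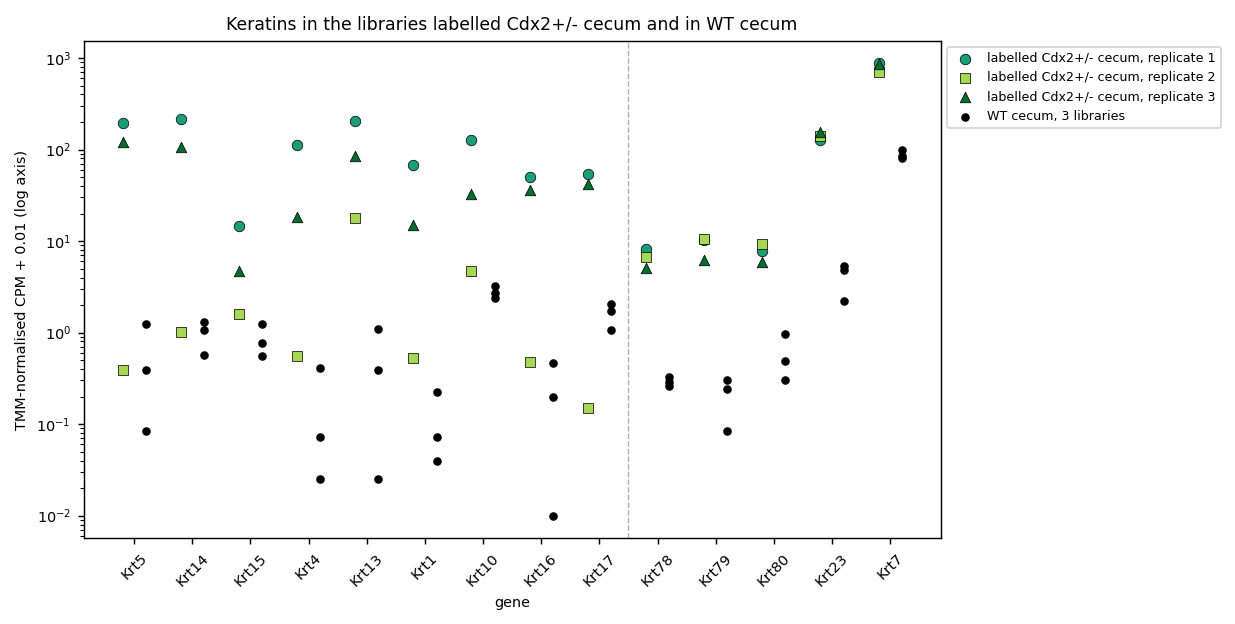
CPM + 0.01 (log axis) of 14 keratins in the 3 libraries labelled Cdx2+/- (a marker shape per replicate) and the 3 WT cecum libraries. For Krt5, Krt14, Krt16 and Krt17 replicate 2 lies near the WT cecum level or under it, while for Krt13, Krt78, Krt79 and Krt80 all 3 replicates lie above WT cecum.

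Other genes of stratified squamous epithelium were read from a list of 17, of which 16 were tested. In cecum labelled Cdx2+/- 12 were higher and none lower than WT cecum, against 17.1% and 17.3% of all genes. The list median was 5.21 and the all-gene median -0.05. The 4 with the smallest adjusted p were Ivl (involucrin of the cornified envelope, 9.08 ± 1.09), Pax9 (a transcription factor of foregut epithelium, 6.37 ± 0.85), Dsg3 (a desmosomal cadherin, 6.22 ± 0.95) and Lypd3 (4.74 ± 0.76). Ivl held 14.4, 25.8 and 18.9 CPM and Pax9 22.2, 14.6 and 20.6 CPM in the 3 libraries, replicate 2 included, against at most 0.0795 and 0.251 in WT cecum.

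Trp63, Krtdap and Krt6a, named after their values were seen, split as Krt5 and Krt14 did, whereas Ivl and Pax9, given above, did not. Trp63 held 8.90, 0.0174 and 5.44 CPM in the labelled Cdx2+/- libraries, Krtdap 50.9, 0.104 and 35.9 CPM, and Krt6a, outside the rule, 163, 0.313 and 67.7 CPM. The 17 genes summed to 1187, 878 and 978 CPM there and 464 to 1247 CPM in WT cecum. The sum thus did not separate the groups, although 12 of the 16 tested members were higher, as given above. The list had no member at 0 in replicates 1 and 3 and 1 at 0 in replicate 2. The part of squamous tissue in the keratin levels of replicates 1 and 3 was not tested. In Cdx2-/- cecum 5 of the 16 were higher and 2 lower than WT cecum, near the 26.9% and 26.2% of all genes, with a list median of 0.11 and an all-gene median of 0.04. The smallest adjusted p values were those of Ivl at 7.72 ± 1.04, Pax9 at 6.55 ± 0.84, Dsg3 at 4.48 ± 0.87 and Serpinb5, a serpin of epithelial cells, at 1.38 ± 0.25. The 2 lower ones, named after their values were seen, were Perp (-0.85 ± 0.21), a desmosome-associated membrane protein, and Tgm3 (-2.19 ± 0.79), a transglutaminase that crosslinks the cornified envelope. Krtdap had no read in any of the 6 libraries.

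Set directly against cecum labelled Cdx2+/-, Cdx2-/- cecum had 2 members higher and 18 lower, against 19.7% and 20.6% of all genes. The members' median log2 fold change was -1.38 (-1.43 without a gene whose group had no reads) and that of all genes 0.05. Stratified keratins led the lower ones, with Krt5 at -6.72 ± 1.21, Krt17 at -6.69 ± 0.88, Krt13 at -5.96 ± 0.77, Krt1 at -5.83 ± 0.92, Krt16 at -5.22 ± 0.93, Krt10 at -3.89 ± 0.56, Krt14 at -3.46 ± 0.99, Krt15 at -2.79 ± 0.56 and Krt4 at -2.74 ± 0.97, and the hair shaft keratin Krt84 was lower too (-2.68 ± 0.91). Of the simple ones, Krt20 fell by 1.95 ± 0.32, Krt8 by 1.43 ± 0.32, Krt19 by 1.04 ± 0.30 and Krt18 by 0.72 ± 0.26. Krt79 (-1.96 ± 0.46), Krt36 (-1.83 ± 0.49), Krt78 (-1.31 ± 0.51) and Krt80 (-1.22 ± 0.46) were lower too, and Krt83 (2.55 ± 0.58) and Krt87 (1.21 ± 0.42) higher. Of these 20 calls, 13 held when each library was left out in turn. Without labelled Cdx2+/- replicate 1, Krt4 gave -0.51 (adjusted p 0.741) and Krt14 -2.44 (adjusted p 0.0965), and without replicate 3 Krt84 gave -1.13 (adjusted p 0.402). Krt18, Krt78, Krt80 and Krt87 lost their calls without any 1 labelled Cdx2+/- library. With set 1 alone as Cdx2-/- cecum, 13 were called. With replicate 2 alone standing for labelled Cdx2+/- cecum, only effect sizes are given. The largest falls among these 20 members were then Krt13 (-3.45), Krt79 (-2.20) and Krt20 (-2.18). Krt14, Krt16, Krt17, Krt4 and Krt5 turned positive.

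Between Cdx2-/- set 2 and set 1, which also differ in sex, no keratin was called by edgeR in the fit over all groups, where 4.03% of all genes were higher and 6.45% lower in set 2. Fitting the 2 sets alone called 2, Krt5 (3.74) and Krt13 (-1.61). One member, Krt5, had an unadjusted p under 0.05 and was called by DESeq2. Krt13 held 0.960, 0.961 and 0.867 CPM in set 2 and 2.79, 3.05 and 2.77 in set 1, without overlap. Krt7 held 437 to 811 CPM in set 2 and 978 to 1298 in set 1, also without overlap.

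WT stomach had 7 members higher and 4 lower than WT cecum, against 22.1% and 21.6% of all genes. The members' median log2 fold change was 0.05 (0.11 with genes that had no reads in stomach at their bound or left out) and that of all genes 0.04. Krt79 (6.73 ± 0.74), Krt78 (5.75 ± 0.76), Krt1 (5.34 ± 1.33), Krt80 (4.01 ± 0.62) and Krt13 (3.20 ± 0.98) were higher beside Krt18 and Krt23. Krt12 (-2.92 ± 0.81), Krt222 (-1.99 ± 0.52) and Krt20 were lower. Krt27, an inner root sheath keratin, had no read in stomach and 0.0743 to 0.609 CPM in WT cecum, at least 6.34-fold lower with 3 reads per library as the limit of detection. Krt79 held 18.3, 13.2 and 29.6 CPM in stomach and Krt78 9.62, 8.55 and 27.8 CPM, above every cecum library.

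The basal keratins were uneven in stomach. Krt5 held 7.29, 0.360 and 0.146 CPM, Krt14 3.61, 0.151 and 0.0910 CPM and Krt13 10.2, 0.70 and 1.78 CPM in the 3 stomach replicates, so replicate 1 was high in each. Without that replicate Krt13 fell short of the test (1.44, adjusted p 0.219), as it did without WT cecum replicate 2 (3.07, adjusted p 0.0508) and with only the compared groups fitted (3.15, adjusted p 0.107). Krtdap, a squamous marker named after its values were seen, held 5.13 CPM in stomach replicate 1 and no read in replicates 2 and 3. Of the 16 tested genes of the squamous list, 2 were higher and 4 lower in WT stomach than in WT cecum. Of all genes 22.1% were higher and 21.6% lower. The list median log2 fold change was 1.31, against 0.04 for all genes. The 17 listed genes summed to 255 to 404 CPM in WT stomach and 464 to 1247 in WT cecum.

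Cecum labelled Cdx2+/- had 19 members higher and none lower than WT stomach, against 19.2% and 19.9% of all genes, with a members' median log2 fold change of 3.26 and an all-gene median of 0.00. Krt20 (3.30 ± 0.42), Krt7 (3.48 ± 0.65), Krt8 (1.01 ± 0.39) and Krt18 (0.84 ± 0.31) were among them. Krt79 and Krt78 leaned to stomach without passing the test, at -1.19 and -1.21. The stratified members Krt5, Krt14, Krt15, Krt4, Krt13, Krt1, Krt10, Krt16 and Krt17 were higher by 2.82 to 7.65 on the log2 scale, but with replicate 2 alone Krt1, Krt10, Krt14, Krt17, Krt4 and Krt5 turned negative. Krt12, Krt36, Krt87 and Krt90 were higher by 3.23 to 5.25, and Krt84 and Krt27 at least 41.1-fold and 10-fold higher than a stomach with no reads. Calls of Krt8, Krt18, Krt1 and Krt15 were each lost when 1 of the 6 libraries was left out, Krt8 for any of them (0.89 to 1.09, adjusted p 0.0769 to 0.144). With only the compared groups fitted, Krt1 (2.83, adjusted p 0.168) and Krt5 (5.33, adjusted p 0.0673) lost theirs.

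In the ileum no member was called between Cdx2-/-;Apc+/- and Apc+/- by edgeR, where 0.395% of all genes were higher and 0.0488% lower. Of the members, 3 had an unadjusted p under 0.05, and DESeq2 called 1, Krt79. Krt79 held 0.736, 0.991 and 2.28 CPM in Cdx2-/-;Apc+/- ileum and 0.289, 0.0743 and 0.603 in Apc+/- ileum, without overlap, a log2 fold change of 2.03 ± 0.61 (edgeR adjusted p = 0.175). Krt8 differed by -0.11 ± 0.39 and Krt7 by 0.06 ± 0.59. Both ileum groups held Krt7 and Krt23 above every WT cecum library, with Krt7 at 792, 599.7 and 418 CPM in Cdx2-/-;Apc+/- and 539, 361 and 842 in Apc+/-, and Krt23 at 162, 189.9 and 322 CPM and 273, 188 and 346. Krt90 reached its highest levels of any group there, at 2.04 to 9.79 CPM in Cdx2-/-;Apc+/- and 6.52 to 11.1 in Apc+/-. Cdx2 was no lower in Cdx2-/-;Apc+/- ileum, at 36.9 to 178 CPM against 63.3 to 112. The labelled loss of Cdx2 thus did not show in gene counts, in which deleted exons are not separable.

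The proteins that anchor keratin filaments were read from lists. In Cdx2-/- cecum 1 of 9 tested desmosomal genes was higher than in WT cecum and 5 were lower, against 26.9% and 26.2% of all genes, with a list median of -0.67 against 0.04 for all genes. Dsg2, the desmosomal cadherin of simple epithelia, fell by 1.61 ± 0.16, the linker Dsp, which ties keratins to desmosomes, by 1.28 ± 0.16, the plaque protein Jup by 1.37 ± 0.22 and the cadherin Dsc2 by 0.87 ± 0.13. In cecum labelled Cdx2+/- 3 were higher, Dsg3, Dsc3 (5.06 ± 1.31) and Pkp2 (0.49 ± 0.15), and 1 lower, Dsg2 (-0.73 ± 0.19), against 17.1% and 17.3% of all genes. Against labelled Cdx2+/- cecum, Cdx2-/- cecum had 8 of the 9 lower and none higher, against 20.6% and 19.7% of all genes.

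Of the 5 hemidesmosomal genes, 2 rose and 2 fell in Cdx2-/- cecum relative to WT cecum, where 26.9% and 26.2% of all genes did. The integrin chains Itga6 (0.87 ± 0.15) and Itgb4 (0.66 ± 0.20), which hold the basal membrane, were higher, and the cytolinkers Dst (-1.64 ± 0.22) and Plec (-1.63 ± 0.27) were lower. Among other keratin-binding proteins, Ppl, a cornified envelope linker, rose by 1.36 ± 0.23 and its relative Evpl fell by 2.22 ± 0.29, as did Fam83h (-0.84 ± 0.22). Of 8 other intermediate filament genes, 2 rose in Cdx2-/- cecum, Nes (1.02 ± 0.19) and the nuclear lamin Lmnb1 (0.47 ± 0.13), a share near the 26.9% of all genes. In cecum labelled Cdx2+/- 1 rose and 4 fell, among them the muscle filament gene Des, against 17.1% and 17.3% of all genes. Epithelial and muscle markers differed between the same groups, as given above, and their part in these lists was not tested.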

How the data were processed

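Poly(A) RNA libraries (TruSeq mRNA v2, no strand marking, from total RNA taken with Trizol, per the labels' protocols) were sequenced from 24 samples. The deposited files hold raw counts per Ensembl gene, which the authors made with CASAVA, TopHat2 2.0.11, HTSeq 0.5.3p3 and GRCm38, per the submitters' processing notes. How HTSeq was set, and with which annotation, is not given in the sources used here. Entries that name no gene were left out: alignments to several places (17.3 to 30.0% per library), reads outside features (6.62 to 10.4%) and ambiguous reads (2.00 to 3.44%). Unique counting lowers the counts of genes with near copies, and overlapping genes cannot be told apart by strand.

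Symbols, coordinates and union exon lengths came from GENCODE M21. Counts were fitted with edgeR 4.0.16 (R 4.3.3), its quasi-likelihood F test, TMM scaling and filterByExpr, with all 24 libraries in 8 groups and no block. P-values were Benjamini-Hochberg adjusted over 20502 genes, and genes were called at an adjusted p under 0.05. The coefficients of the 2 Cdx2-/- sets were averaged in comparisons that use both. SE is the absolute log2 fold change divided by the square root of F. Adjusted p-values are edgeR's unless another tool is named. Alternatives were DESeq2 1.42.0, RLE factors, no low-count filter, the compared groups alone, each set alone, a replicate block and leaving out each library, and the fit was tested on simulated counts.

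Every member is accounted for. Those with a group mean of at least 1 CPM were described, all called members were named, and from each other list at most 4 genes with the smallest adjusted p. Members and lists were chosen with earlier results of these data known. The labels do not say what replicate numbers share. Deviations from the group means correlated weakly for all 3 same-numbered pairs of labelled Cdx2+/- and WT cecum (r = 0.160, 0.127 and 0.239). In none of the other 20 pairs of groups were all 3 over 0.1. Labelled Cdx2+/- and WT cecum were therefore taken as paired, from the data alone. They were picked on these same correlations, which do not show that the numbers mark anything shared. The block was fitted jointly over 7 groups, without set 2, so it is no paired test of those groups alone. Set 1 replicates 2 and 3 were alike (chi-square 7.03 per degree of freedom against 53.0 to 507 in other pairs of a group) but differed beyond counting noise and were kept as 2 libraries. Depth was 36567685 to 87975179 gene reads.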

Additional observations from a re-analysis of the deposited data

Results flagged for a closer look

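In the 6 Cdx2-/- cecum libraries, 17 keratins were checked for 1 library that lies far from the others, and 4 had one. Chance alone marks about 1 in 20. The basal keratin Krt14 reached 25.7 CPM in set 1 replicate 1, and the next library held 9.41. Krt5, its type II partner, reached 7.49 CPM in set 2 replicate 4, and the next held 1.82. Krt78 and Krt79, both of squamous and follicular epithelium, were highest in set 2 replicate 6, at 8.20 CPM (next 2.88) and 5.25 CPM (next 2.05).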

How the results depend on the processing

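Leaving out 1 library at a time gave 13 to 16 keratins called in Cdx2-/- cecum against WT cecum, 19 to 20 in cecum labelled Cdx2+/-, 13 to 16 in Cdx2-/-;Apc+/- cecum, 10 to 12 in WT stomach, 14 to 21 for Cdx2-/- against labelled Cdx2+/-, 0 to 1 for Cdx2-/-;Apc+/- against Cdx2-/-, 15 to 20 for labelled Cdx2+/- against stomach, and 0 in the ileum and between sets. DESeq2 called 1 in the ileum and 1 between sets. Fitting only the compared groups called 2 between sets, Krt5 (3.74) and Krt13 (-1.61). For Cdx2-/- against labelled Cdx2+/-, set 1 alone gave 13, and for Cdx2-/-;Apc+/- against Cdx2-/-, set 2 alone gave 0 and adding up set 1 replicates 2 and 3 gave 1. The replicate block (set 1 as Cdx2-/-) called 13 for Cdx2-/- against labelled Cdx2+/-, and 15, 21, 15 and 11 for Cdx2-/-, labelled Cdx2+/-, Cdx2-/-;Apc+/- and stomach against WT cecum. For labelled Cdx2+/- against WT cecum, where the numbers were taken to pair, the block added Krt19 and changed no other call. Elsewhere they were not (63 pairs in all, r from -0.366 to 0.384, 19 over 0.1), and under the block Krt8 (-0.72, adjusted p 0.0807) and Krt17 (-2.23, adjusted p 0.113) lost their calls in Cdx2-/- against WT cecum. No paired analysis was possible for set 2 against set 1 because they share no numbers. With labelled Cdx2+/- replicates 1 and 3 left out, 10 were called against WT cecum, 3 for Cdx2-/- against labelled Cdx2+/- and 9 against stomach. Values then reversed for Krt17 (-3.51) and Krt5 (-0.48) against WT cecum, for Krt14 (3.29), Krt16 (0.73), Krt17 (1.15), Krt4 (3.60) and Krt5 (1.39) in Cdx2-/- against labelled Cdx2+/-, and for Krt1 (-2.85), Krt10 (-0.20), Krt14 (-0.34), Krt17 (-3.18), Krt4 (-0.39) and Krt5 (-2.75) against stomach. Fewer libraries enter each of these fits. Having 3 libraries a group limits the precision for genes under 1 CPM.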
